A study of Mus musculus with 73 samples.

Results

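Expression of 10 genes of the p53 response and of cell-cycle arrest was followed through mouse embryos in which chromatin regulators had been targeted for knockout. The genes were Cdkn1a, Cdkn2a, Cdkn2b, Mdm2, Ccng1, Bbc3, Phlda3, Zmat3, Trp53inp1 and Sesn2, taken by name from a table of 30546 genes. A row was found for 9 of the 10, and Mdm2 was not analysed here. Each of 72 RNA libraries was made from the epiblast (the tissue that forms the embryo) or the extraembryonic ectoderm (ExE, the trophoblast tissue next to it) of 1 mouse embryo at embryonic day 6.5. All knockout embryos and the wild-type group they were compared with came from BDF1 eggs and CAST sperm (BDF1xCAST, mother first), fertilised by sperm injection. Knockouts were made in the zygote with Cas9 mRNA and 3 to 4 guide RNAs for each targeted gene, so that an embryo can be a mosaic of edited alleles. They targeted Dnmt1 (a DNA methyltransferase), Ehmt1 and Ehmt2 together (G9a-Glp, histone H3K9 methyltransferases), Rnf2 (the catalytic subunit of Polycomb complex PRC1) or Eed (a core subunit of PRC2). Embryos were transferred to CD-1 females at the blastocyst stage. A further wild-type group, CASTxBDF1, had CAST mothers and BDF1 fathers and came from natural mating. Whether the wild-type BDF1xCAST zygotes received any injection other than that of sperm was not stated in the labels. The groups held 7 epiblast and 7 ExE libraries of wild type BDF1xCAST, 4 and 4 of CASTxBDF1, 3 and 3 of Dnmt1, 6 and 8 of G9a-Glp, 6 and 5 of Rnf2, and 9 and 10 of Eed.

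The protein p53 is a transcription factor that is held at a low level until DNA damage or another stress stabilises it, after which it binds its response elements and raises a set of target genes. Among those targets, Cdkn1a encodes p21, which inhibits cyclin-dependent kinases and stops the cell cycle. The neighbouring genes Cdkn2a and Cdkn2b encode further inhibitors of these kinases, and an alternative product of Cdkn2a blocks the p53 inhibitor Mdm2. The Cdkn2a-Cdkn2b locus is a known target of Polycomb repression in cultured cells. The epiblast of this stage divides very fast and is known for its sensitivity to DNA damage.

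To show where p53 could bind near the members, the promoter windows of RefSeq (build GRCm38.p6, 250 bases before to 50 after an annotated start) were searched for the p53 half-site consensus, a 10-base palindrome that reads the same on both strands. Of 32851 windows of all genes, 2745 (8.36%) held at least 1 match. Windows were found for 8 of the 10 members (12 windows), and 3 of these windows, of Cdkn1a, Ccng1 and Mdm2, held a match. The Cdkn1a and Ccng1 windows are shown because these genes moved together across the libraries, with the matched half-sites in capitals.
Cdkn1a, upstream start: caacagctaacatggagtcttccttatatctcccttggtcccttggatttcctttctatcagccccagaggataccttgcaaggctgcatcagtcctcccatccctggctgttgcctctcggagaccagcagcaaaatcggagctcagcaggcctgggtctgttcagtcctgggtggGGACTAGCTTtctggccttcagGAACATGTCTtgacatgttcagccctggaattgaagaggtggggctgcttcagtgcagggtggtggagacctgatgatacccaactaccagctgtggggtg
Ccng1: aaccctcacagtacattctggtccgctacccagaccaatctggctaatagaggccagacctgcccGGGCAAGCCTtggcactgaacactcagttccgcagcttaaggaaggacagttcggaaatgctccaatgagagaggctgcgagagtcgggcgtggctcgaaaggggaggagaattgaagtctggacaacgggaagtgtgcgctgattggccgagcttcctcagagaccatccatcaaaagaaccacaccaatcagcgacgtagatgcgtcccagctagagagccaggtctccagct
The Cdkn1a window lies at chr17:29090729-29091028 on the plus strand, and its 2 half-sites begin at -73 and -51 relative to the start, with 12 bases between them. A second Cdkn1a window, at chr17:29093519-29093818 around a downstream start, held no match. The downstream window held 23 CpG dinucleotides and the upstream window 2, against a median of 7 over all windows. The Ccng1 window lies at chr11:40755237-40755536 on the minus strand, and its half-site begins at -185. A match describes the letters in the window and is not evidence of binding.

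Every value below is built from reads that cover a polymorphism between BDF1 and CAST, with both alleles summed, given as counts per 1000000 of the library total (CPM). Levels can be compared between libraries for 1 gene, not between genes, because genes differ in the polymorphisms they carry. Tests were made with edgeR's quasi-likelihood method, 2-sided, with Benjamini-Hochberg adjustment over all genes tested in a comparison, and a gene was called at an adjusted p under 0.05. Values after ± in fold changes are standard errors and those in CPM are SDs. Library totals ran from 1141414 to 17653087 reads. The Rnf2 epiblast libraries, at 5549733 to 17653087 reads, were all deeper than the wild-type epiblast libraries, at 1311863 to 3028267. Depth and genotype therefore cannot be told apart there. Rnf2 ExE embryos 2, 4, 6 and 7, with totals from 6998279 to 10263280, also exceeded every wild-type ExE library (2685835 to 3053690). Only Rnf2 ExE embryo 5, at 1847681, was shallower, so depth largely went with genotype in Rnf2 ExE too. No Eed library passed 3976031 reads. Comparisons of Eed with Rnf2 therefore carry the same limit, apart from that embryo. In bulk tissue, fewer cells of a type and less RNA per cell cannot be told apart. The targeted genes were checked first, as log2 fold changes. Eed fell by 4.21 ± 0.34 in Eed epiblast and by 4.79 ± 0.26 in Eed ExE. Dnmt1 fell by 2.27 ± 0.30 in Dnmt1 epiblast, Rnf2 by 0.81 ± 0.21 in Rnf2 epiblast, and Ehmt1 and Ehmt2 by 1.05 ± 0.29 and 2.05 ± 0.37 in G9a-Glp ExE. The drop was not called for Dnmt1 in ExE (-0.95 ± 0.42), Rnf2 in ExE (-0.43 ± 0.30) and Ehmt1 in G9a-Glp epiblast (-0.62 ± 0.41). Ehmt2 was not tested in G9a-Glp epiblast, so no drop of a targeted gene was called in that group. Rnf2 was also called lower in epiblast where it was not targeted, in Eed (-0.66 ± 0.15) and G9a-Glp (-0.54 ± 0.18). In Dnmt1 epiblast it was at -0.69 ± 0.26, not called. The Rnf2 drop in Rnf2 epiblast is therefore a weak check of that label. In 6 knockout libraries no targeted gene was below the second lowest wild-type value, namely 1 labelled Dnmt1 ExE, 2 labelled G9a-Glp epiblast and 3 labelled Rnf2 ExE. For a targeted gene, below the wild type means below that value in what follows. Epiblast markers (8 genes, summed) were at 1900 to 6306 CPM in every epiblast group and at 491 to 1312 CPM in every ExE group, and the pluripotency gene Pou5f1 had no read in wild-type BDF1xCAST ExE. Markers of visceral endoderm, which dissection removes (12 genes, summed), were at 13.2 to 27.9 CPM in wild-type ExE, 45.2 to 89.6 in Eed ExE, 20.3 to 140 in G9a-Glp ExE, 26.1 to 55.3 in Rnf2 ExE and 16.3 to 42.6 in Dnmt1 ExE. Among them Afp rose by 4.35 ± 0.58 in G9a-Glp ExE and Amn by 1.08 ± 0.21 in Rnf2 ExE. In Eed ExE Gata4 rose by 4.81 ± 0.48, Rbp4 by 1.37 ± 0.26 and Amn by 1.30 ± 0.26. Sox17 and Foxa2 had no read in wild-type ExE. In epiblast the summed visceral endoderm markers ran from 8.59 to 672 CPM in the wild type and from 12.8 to 316 over the 4 knockouts. Des, a marker of decidua, rose by 4.24 ± 0.53 in Eed ExE, where markers of decidua and maternal blood summed to 1.71 to 16.1 CPM, against at most 0.745 in wild-type ExE. Markers of ExE itself (8 genes with a row) summed to 344 to 653 CPM in Eed ExE and 601 to 1159 CPM in wild-type ExE, and 4 of 7 tested were lower in Eed. The part of these markers in the results was not tested. Scaling by library totals instead of TMM raised the median log2 fold change of all genes by 0.21 in Dnmt1 epiblast, 0.16 in Eed epiblast, 0.25 in Dnmt1 ExE and 0.17 in Eed ExE. It also raised the share of calls that were higher, from 49.2% to 71.3%, from 53.8% to 72.1%, from 46.2% to 72.5% and from 55.6% to 74.0% in that order, and from 40.9% to 62.7% (epiblast) and 65.4% to 82.5% (ExE) for Eed against Rnf2.

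In the wild type (BDF1xCAST), Cdkn1a (chr17:29090978-29100722, build mm10 as for every gene) and Zmat3 were lower in ExE than in epiblast. Cdkn1a ran from 8.31 to 43.4 CPM in the 7 epiblast libraries (median 19.2) and from 2.96 to 14.0 CPM in the 7 ExE libraries (median 7.15). The ranges overlapped, and the log2 fold change was -1.40 ± 0.33 (adjusted p = 0.00155). With all groups in one fit that call was lost (adjusted p = 0.0520, within a range of 0.000129 to 0.0520). Zmat3 (chr3:32334791-32365665), which encodes an RNA-binding zinc-finger protein, was also lower in ExE, with a log2 fold change of -0.72 ± 0.22 (adjusted p = 0.0107). The Zmat3 call was lost with no filter (adjusted p = 0.0523, within a range of 0.00487 to 0.0523). Of 4 members tested in this comparison 2 were called, against 56.7% of all genes. Ccng1 was at 63.0 ± 16.6 CPM in epiblast and 71.1 ± 19.1 CPM in ExE (n = 7 each), with a log2 fold change of 0.23 ± 0.19 and an adjusted p of 0.336.

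Cdkn1a rose in all 4 knockouts in both tissues. In epiblast the 3 Dnmt1 libraries held 87.7, 64.8 and 164 CPM, all above the highest wild-type value of 43.4. The 9 Eed libraries lay between 44.3 and 121 CPM (median 103), also all above it. Rnf2 epiblast lay between 40.8 and 129 CPM (median 61.2), with 5 of 6 libraries above the wild type. G9a-Glp epiblast was the most spread, from 13.7 to 80.5 CPM (median 54.1), and only 3 of its 6 libraries passed the highest wild-type value. The log2 fold changes in epiblast were 2.17 ± 0.37 for Dnmt1 (adjusted p = 0.00226), 1.18 ± 0.41 for G9a-Glp (adjusted p = 0.0328), 1.88 ± 0.33 for Rnf2 (adjusted p = 0.000608) and 1.97 ± 0.27 for Eed (adjusted p = 2.76e-05). The G9a-Glp call was lost on leaving out any of 3 knockout libraries (embryos 1, 4 and 5) or 4 wild-type libraries (embryos 3, 4, 6 and 7), with log2 fold changes of 0.88 to 1.17 and adjusted p-values of 0.055 to 0.116. Over all alternatives for that call the adjusted p ran from 0.00258 to 0.116.

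In ExE the same gene rose from a lower wild-type level. The knockout mean was higher in ExE than in epiblast for Eed and G9a-Glp, and lower for Rnf2 (35.8 against 76.3 CPM) and Dnmt1 (26.5 against 106 CPM). The Eed ExE mean was drawn up by the female libraries, whose values are given below. All 10 Eed libraries, at 65.0 to 590 CPM (median 121), and all 8 G9a-Glp libraries, at 37.7 to 262 CPM (median 98.4), exceeded the highest wild-type ExE value of Cdkn1a, 14.0 CPM. The 5 Rnf2 libraries held 41.6, 21.4, 69.3, 25.1 and 21.4 CPM and were also all above the wild type. The 3 Dnmt1 libraries held 13.2, 32.2 and 34.0 CPM, and the first of them lay inside the wild-type range. Cdkn1a rose by a log2 fold change of 4.78 ± 0.53 in Eed (adjusted p = 6.23e-07), 3.73 ± 0.39 in G9a-Glp (adjusted p = 1.23e-06), 2.15 ± 0.34 in Rnf2 (adjusted p = 0.000474) and 1.54 ± 0.37 in Dnmt1 (adjusted p = 0.0116). The Dnmt1 ExE call rested on few embryos: without embryo 2 the adjusted p was 0.0631, without embryo 3 it was 0.0918, and over all alternatives it ran from 0.00178 to 0.171. Ordered by mean CPM over the 12 groups, Cdkn1a was highest in Eed ExE (240 ± 199) and lowest in wild-type BDF1xCAST ExE (7.61 ± 3.36). Among neighbours in that order, only the lowest group and the next, wild-type BDF1xCAST epiblast (21.0 ± 11.2), were farther apart than the SD of each.

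**Figure D1:**
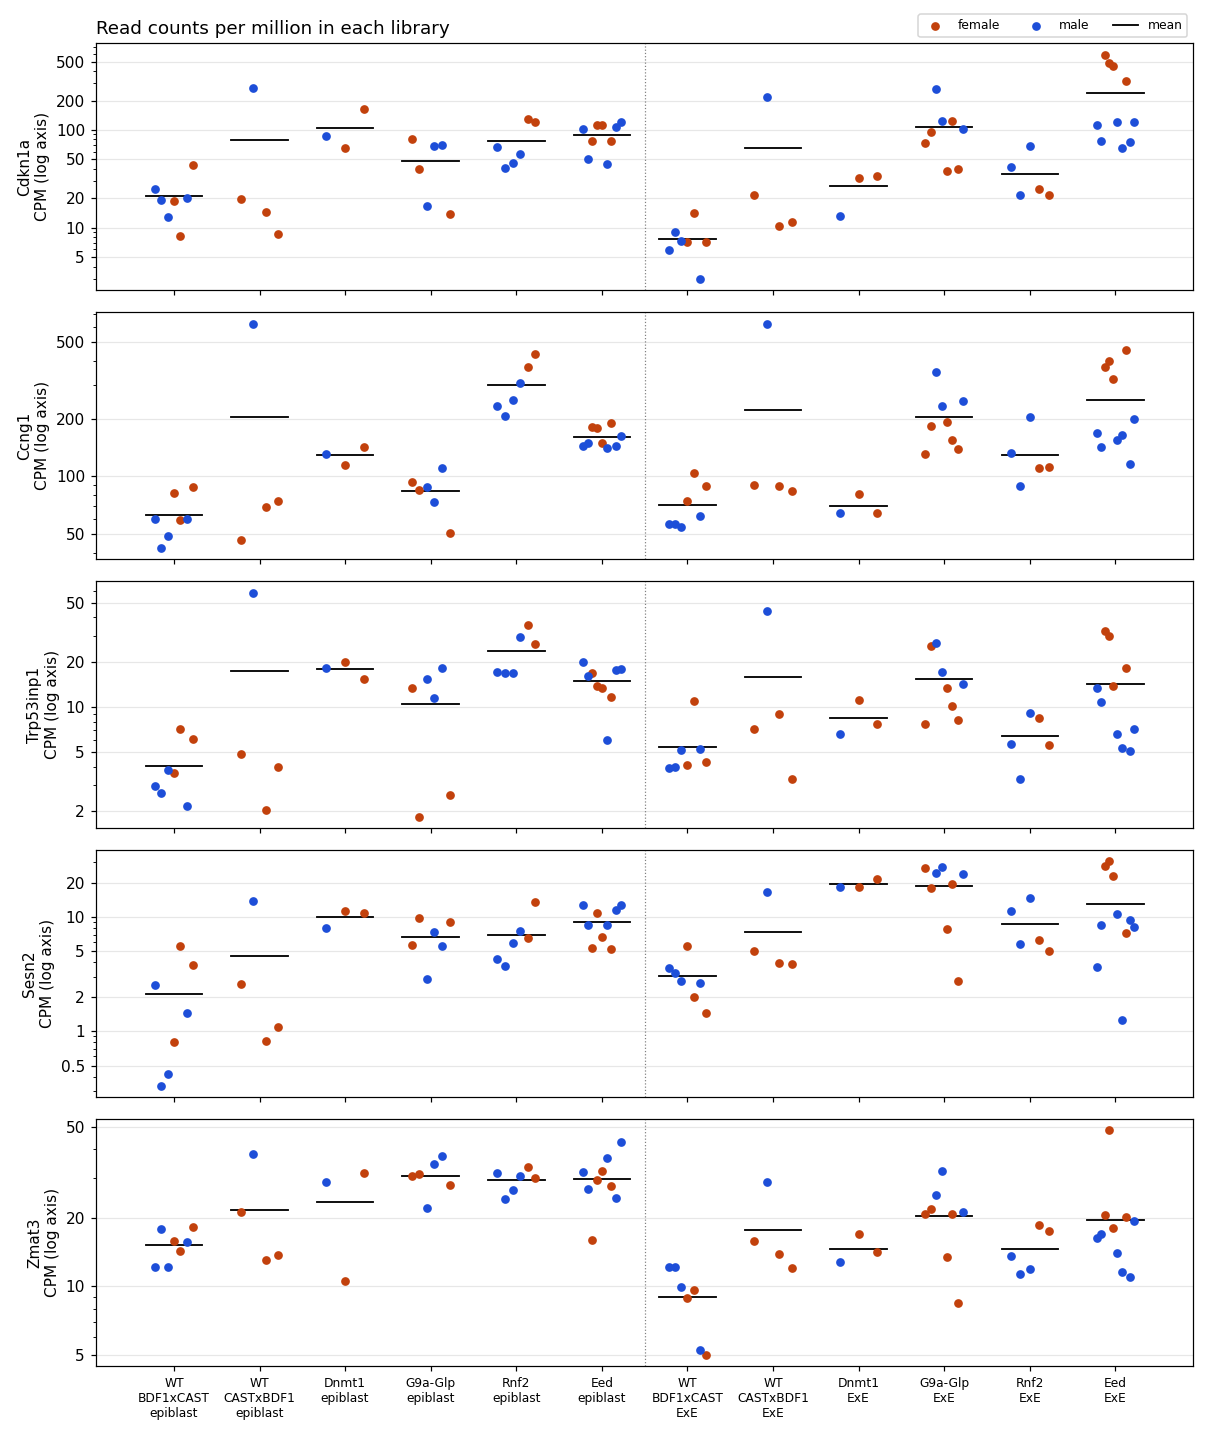
Each point is 1 library, by group on the x axis and CPM on a log y axis, for the 5 members with enough reads for testing (Cdkn1a, Ccng1, Trp53inp1, Sesn2 and Zmat3). Colour gives the sex of the embryo, short black lines are group means, and the dotted line parts epiblast from ExE. Cdkn1a is above the highest wild-type BDF1xCAST value of its tissue in 10 of 10 Eed and 8 of 8 G9a-Glp ExE libraries, and 1 male CASTxBDF1 embryo stands above the other embryos of its group.

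Ccng1 (chr11:40748551-40755315), which encodes cyclin G1, a p53 target that feeds back on the p53-Mdm2 loop, did not follow Cdkn1a everywhere. In wild-type epiblast it was at 42.3 to 88.4 CPM (median 59.9). All 6 Rnf2 epiblast libraries, at 207 to 432 CPM (median 278), and all 9 Eed epiblast libraries, at 140 to 189 CPM (median 150), lay above that range. The 3 Dnmt1 epiblast libraries, at 131, 115 and 142 CPM, did too. The Ccng1 log2 fold changes were 2.24 ± 0.21 in Rnf2 (adjusted p = 2.21e-06), 1.2 ± 0.15 in Eed (adjusted p = 1.14e-05) and 0.84 ± 0.21 in Dnmt1 (adjusted p = 0.0200). The Dnmt1 value was no longer called without embryo 1 (adjusted p = 0.0654) or embryo 3 (adjusted p = 0.0938), and over all alternatives its adjusted p ran from 0.00306 to 0.140. In G9a-Glp epiblast Ccng1 was at 50.5 to 110 CPM, overlapping the wild type, and the log2 fold change of 0.35 ± 0.20 was not called (adjusted p = 0.181).

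In ExE, Ccng1 was at 54.6 to 104 CPM in the wild type. It lay above that in all 10 Eed libraries (117 to 458 CPM, median 184), in all 8 G9a-Glp libraries (130 to 348 CPM, median 187) and in 4 of 5 Rnf2 libraries (133, 88.9, 203, 111 and 112 CPM). The 3 Dnmt1 libraries, at 64.7, 80.7 and 64.1 CPM, lay inside the wild-type range. The log2 fold change was 1.64 ± 0.28 in Eed (adjusted p = 8.93e-05), 1.44 ± 0.22 in G9a-Glp (adjusted p = 0.000117), 0.79 ± 0.22 in Rnf2 (adjusted p = 0.0172) and -0.29 ± 0.24 in Dnmt1 (adjusted p = 0.450). The Rnf2 ExE call for Ccng1 was lost without embryo 5 (log2 fold change 0.58, adjusted p = 0.0536). It was also lost when the 3 Rnf2 ExE libraries with Rnf2 not below the second lowest wild-type value were left out (log2 fold change 0.42, adjusted p = 0.394), within a range of 0.00672 to 0.394 over all alternatives.

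Trp53inp1 (chr4:11156440-11174377), whose product takes part in p53-dependent cell death and autophagy, had its largest change in the epiblast. It was at 2.18 to 7.12 CPM (median 3.63) in the 7 wild-type epiblast libraries. All 6 Rnf2 libraries, at 17 to 35.7 CPM (median 21.9), and all 3 Dnmt1 libraries, at 18.3, 20.2 and 15.4 CPM, were above that, as were 8 of 9 Eed libraries (6.00 to 20.2 CPM, median 16.2). G9a-Glp epiblast split into 2 libraries at 1.83 and 2.57 CPM (embryos 2 and 7) and 4 libraries at 11.6 to 18.2 CPM. Embryos 2 and 7 were also the 2 whose targeted genes were not below the wild type. Trp53inp1 rose by 2.55 ± 0.30 in Rnf2 (adjusted p = 1.69e-05), 1.94 ± 0.38 in Dnmt1 (adjusted p = 0.00526), 1.73 ± 0.29 in Eed (adjusted p = 0.000182) and 1.36 ± 0.47 in G9a-Glp (adjusted p = 0.0337), all as log2 fold changes. The G9a-Glp call was lost on leaving out any of embryos 1, 3, 4 and 5 of the knockout or 1, 2, 3, 4 and 7 of the wild type, with log2 fold changes of 1.14 to 1.35 and adjusted p-values of 0.0528 to 0.0941, the highest of all its alternatives. In ExE, Trp53inp1 rose in G9a-Glp (log2 fold change 1.43 ± 0.31, adjusted p = 0.00433) and Eed (1.21 ± 0.37, adjusted p = 0.0126). It was not called in Rnf2 ExE (0.16 ± 0.33, adjusted p = 0.754), where 0 of 5 libraries passed the highest wild-type value of 11 CPM, or in Dnmt1 ExE (0.40 ± 0.39, adjusted p = 0.534).

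Sesn2 (chr4:132492803-132510456) encodes sestrin 2, which restrains the growth kinase mTORC1 and is raised by p53 and by the integrated stress response. In wild-type ExE it was at 1.43 to 5.58 CPM (median 2.75). The 3 Dnmt1 ExE libraries held 18.3, 18.1 and 21.5 CPM, tight and far above that range, while Ccng1 in the same libraries did not leave the wild-type range. G9a-Glp ExE ran from 2.73 to 27.2 CPM (median 21.6), with 7 of 8 libraries above the wild type. The log2 fold change of Sesn2 in ExE was 2.54 ± 0.39 in G9a-Glp (adjusted p = 0.000158), 2.42 ± 0.34 in Dnmt1 (adjusted p = 0.000727), 1.91 ± 0.47 in Eed (adjusted p = 0.00294) and 1.41 ± 0.36 in Rnf2 (adjusted p = 0.0106). The Rnf2 value was 0.79 (adjusted p = 0.340) with the 2 libraries in which Rnf2 was below the wild type, within a range of 0.00199 to 0.340 over its alternatives. In epiblast, Sesn2 was at 0.330 to 5.54 CPM in the wild type and rose in G9a-Glp (1.60 ± 0.51, adjusted p = 0.0215), Rnf2 (1.74 ± 0.53, adjusted p = 0.0205) and Eed (1.97 ± 0.44, adjusted p = 0.00160). The Rnf2 epiblast call was lost without embryo 8 (1.40, adjusted p = 0.0584) and with the replicate block (1.63, adjusted p = 0.113), within a range of 0.00619 to 0.113. The G9a-Glp epiblast call was lost without embryo 7 (1.5, adjusted p = 0.0501). It was also lost without the 2 libraries whose targeted genes were not below the wild type (1.34, adjusted p = 0.119), within a range of 0.00280 to 0.119. The 3 Dnmt1 epiblast libraries, at 7.97, 11.4 and 10.7 CPM, were all above the wild type, but the log2 fold change of 2.05 ± 0.66 just missed the threshold (adjusted p = 0.0538). It was called in 6 of 16 alternatives, namely DESeq2 (adjusted p = 0.0256), library totals (adjusted p = 0.0359), the replicate block (adjusted p = 0.0484), all groups in one fit (adjusted p = 0.0128), and without wild-type embryo 6 (adjusted p = 0.0222) or 8 (adjusted p = 0.0251), within a range of 0.0128 to 0.171.

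Zmat3 was called higher in 5 of 8 knockout comparisons, with log2 fold changes of 0.82 to 1.11 in those. Wild-type epiblast held 12.2 to 18.3 CPM (median 15.6), and all 6 G9a-Glp libraries (22.0 to 37.4 CPM) and all 6 Rnf2 libraries (24.1 to 33.5 CPM) were above that, as were 8 of 9 Eed libraries (16.0 to 43.1 CPM). Zmat3 rose by a log2 fold change of 0.93 ± 0.18 in G9a-Glp (adjusted p = 0.000718), 0.92 ± 0.16 in Rnf2 (adjusted p = 0.000507) and 0.82 ± 0.18 in Eed epiblast (adjusted p = 0.00175). In ExE it rose in G9a-Glp (1.11 ± 0.25, adjusted p = 0.00535) and Eed (0.96 ± 0.27, adjusted p = 0.00730). In Rnf2 ExE the value of 0.65 ± 0.24 missed the threshold (adjusted p = 0.0595) and was called without wild-type embryo 2 (0.74, adjusted p = 0.0450), within a range of 0.0363 to 0.326. Dnmt1 gave 0.44 ± 0.31 in epiblast (adjusted p = 0.378) and 0.46 ± 0.31 in ExE (adjusted p = 0.333). Also listed is 4930429B21Rik (chr3:32365488-32367438), which overlaps only the end of the Zmat3 span. Whether the counting used strand is not given in the sources used here.

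**Figure D2:**
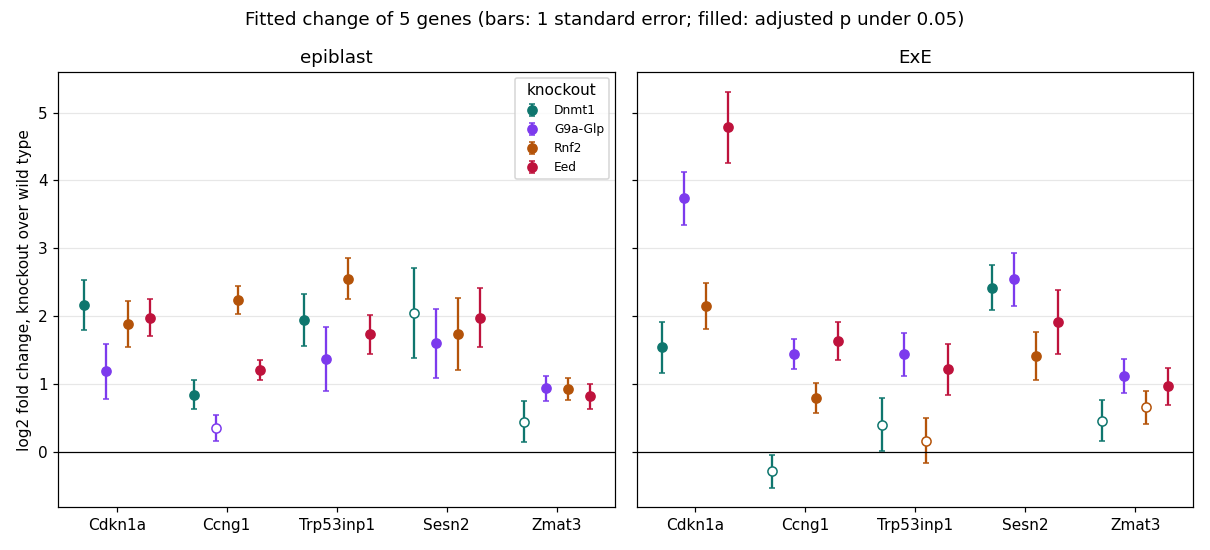
Log2 fold change of each knockout over wild type BDF1xCAST (y axis) for 5 genes (x axis), in epiblast on the left and ExE on the right. Points are edgeR estimates, bars are 1 standard error, and filled points have an adjusted p under 0.05. The highest point is Cdkn1a in Eed ExE at 4.78, and Ccng1 in Dnmt1 ExE lies below 0 at -0.29.

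Counted by comparison, 5 members passed edgeR's filter on low counts in every knockout comparison, and no member was called lower. In Dnmt1 epiblast 3 of 5 were called higher, against 6.94% of all genes tested. The count was 4 of 5 in G9a-Glp epiblast, where 19.6% of all genes were called higher. All 5 were called higher in Rnf2 epiblast (18.0% of all genes) and in Eed epiblast (19.2% of all genes). In ExE all 5 were called higher in Eed (22.7% of all genes) and in G9a-Glp (8.5%), 3 in Rnf2 (12.2%) and 2 in Dnmt1 (8.54%). The median log2 fold change over the 5 tested members was highest in Dnmt1 epiblast (1.94), Rnf2 epiblast (1.88) and Eed epiblast (1.73) and lowest in Dnmt1 ExE (0.46), while the median over all genes lay between -0.03 and 0.02 in these 8 comparisons. The 5 genes entered because they had reads enough, so these counts are not over all members. Sesn2 did not pass this filter in wild-type BDF1xCAST libraries alone, either between tissues or between sexes. It therefore entered the knockout comparisons through knockout libraries, where it was high. Its calls in these counts are thus not independent of the filter. Trp53inp1 passed the filter between wild-type tissues but not between sexes in wild-type epiblast. In epiblast its entry thus also relied on knockout libraries, where it was high. Its epiblast calls in these counts and medians are not independent of the filter either. In ExE, Zmat3 and Trp53inp1 were not called in Dnmt1 or Rnf2, nor Ccng1 in Dnmt1.

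The tissues were compared directly by testing the effect in ExE minus the effect in epiblast. For Eed, Cdkn1a rose more in ExE, by 2.84 ± 0.57 on the log2 scale (adjusted p = 0.000618), and this was the 1 member called of 5, against 15.9% of all genes. For G9a-Glp the difference was 2.59 ± 0.59 for Cdkn1a (adjusted p = 0.00659) and 1.14 ± 0.30 for Ccng1 (adjusted p = 0.0186), 2 members of 5 against 6.83% of all genes. The G9a-Glp call for Ccng1 was lost with all groups in one fit (adjusted p = 0.147) and without the 2 epiblast libraries whose targeted genes were not below the wild type (0.97, adjusted p = 0.0786), within a range of 0.00547 to 0.147. For Rnf2 the called differences went the other way, toward the epiblast. They were -2.40 ± 0.45 for Trp53inp1 (adjusted p = 0.00105) and -1.46 ± 0.31 for Ccng1 (adjusted p = 0.00406), 2 members of 5 against 6.82% of all genes. With all groups in one fit the Rnf2 value for Ccng1 was not called (-1.39, adjusted p = 0.100, the highest of its alternatives). For Dnmt1 no member was called by edgeR or by DESeq2, 2 of 5 had an unadjusted p under 0.05, and 0.247% of all genes were called. The Cdkn1a difference was 0.26 ± 0.50 for Rnf2 (adjusted p = 0.847) and -0.57 ± 0.57 for Dnmt1 (adjusted p = 0.827). Fitting with each embryo as a block left the number of members called in these 4 comparisons as it was.

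The Polycomb knockouts were also compared with each other. In epiblast, Ccng1 was lower in Eed than in Rnf2 by a log2 fold change of -1.01 ± 0.16 (adjusted p = 0.000877), and the ranges of 140 to 189 and 207 to 432 CPM did not meet. Cdkn1a did not pass the test there (0.12 ± 0.27, adjusted p = 0.851). That made 1 member of 5 called, against 3.95% of all genes. In ExE, Cdkn1a was higher in Eed than in Rnf2 by 2.65 ± 0.56 (adjusted p = 0.00405), and Ccng1 by 0.85 ± 0.31 without passing the threshold (adjusted p = 0.0735). Here 1 member of 7 was called, against 14.5% of all genes. With the 2 Rnf2 ExE libraries in which Rnf2 was below the wild type, the Cdkn1a difference was 3.32 (adjusted p = 0.0765, within a range of 0.000129 to 0.0765). Ccng1 in that comparison was called without Eed embryo 9 (0.93, adjusted p = 0.0333) or Rnf2 embryo 5 (1.07, adjusted p = 0.0455), within a range of 0.0333 to 0.235.

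Eed ExE libraries split by the sex of the embryo, a pattern seen first in the values and tested afterwards. The 4 females held 590, 482, 446 and 314 CPM of Cdkn1a and the 6 males 111, 77.5, 122, 65.0, 75.9 and 119 CPM, with no overlap. Females were higher by a log2 fold change of 2.14 ± 0.24 (adjusted p = 0.00111). Ccng1 divided the same embryos, at 321 to 458 CPM in females and 117 to 199 CPM in males, with a log2 fold change of 1.17 ± 0.22 (adjusted p = 0.0296). The Ccng1 call was lost without any of embryos 1, 2, 3, 4, 5, 7 and 8, with log2 fold changes of 1.05 to 1.24 and adjusted p-values of 0.0504 to 0.105. Trp53inp1 gave 1.44 ± 0.31 (adjusted p = 0.0518). Of 6 members tested 2 were called, against 0.516% of all genes. Of the 28 other p53 targets tested, 3 were called higher in these females and 0 lower: Btg2, an antiproliferative gene, by 1.53 ± 0.25, Eda2r, a death-domain receptor, by 1.38 ± 0.28, and Polk, a DNA polymerase, by 1.00 ± 0.20. Eda2r lies on chromosome X, and the part of that location in its difference by sex was not tested.

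Sex was tested in 4 other groups, and the remaining groups were not tested. No member was called between females and males in wild-type epiblast (0.18% of all genes called), wild-type ExE (0.0108%), G9a-Glp ExE (0.0104%) or Eed epiblast (0.284%), by edgeR after its filter or by DESeq2. With no filter, 2 members were called in G9a-Glp ExE, both lower in females: Cdkn1a (-1.19, adjusted p = 0.000139, within a range of 0.000139 to 1.00) and Ccng1 (-0.81 ± 0.21, adjusted p = 0.0388). Without embryo 4, Ccng1 was called in wild-type ExE (adjusted p = 0.00341, within a range of 0.00341 to 0.565). At an unadjusted p under 0.05 there were 0 of 3, 1 of 4, 3 of 6 and 1 of 5 members in that order. The Cdkn1a difference was 0.66 ± 0.43 in wild-type ExE, -1.18 ± 0.37 in G9a-Glp ExE (adjusted p = 0.979) and 0.22 ± 0.27 in Eed epiblast. Tested as an interaction, the Eed effect on Cdkn1a in ExE was larger in females than in males by 1.5 ± 0.45, which did not pass after adjustment (adjusted p = 0.200, unadjusted p = 0.00317). With no filter it was called (1.51, adjusted p = 0.00603, within a range of 0.00603 to 0.436). After the filter no member of 7 passed in that test of ExE (0.0354% of all genes called) and none of 5 in the test of epiblast (0.0803%), by edgeR or DESeq2, and 1 member in each had an unadjusted p under 0.05. Within each sex, Cdkn1a in Eed ExE stood above the wild type by a log2 fold change of 5.30 ± 0.32 in females (adjusted p = 4.61e-07) and 3.84 ± 0.32 in males (adjusted p = 7.18e-06). In males alone only Cdkn1a and Ccng1 of the 5 members were called in ExE, and in females alone only those 2 were called in epiblast. Wild-type ExE had 3 females and 4 males.

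**Figure D3:**
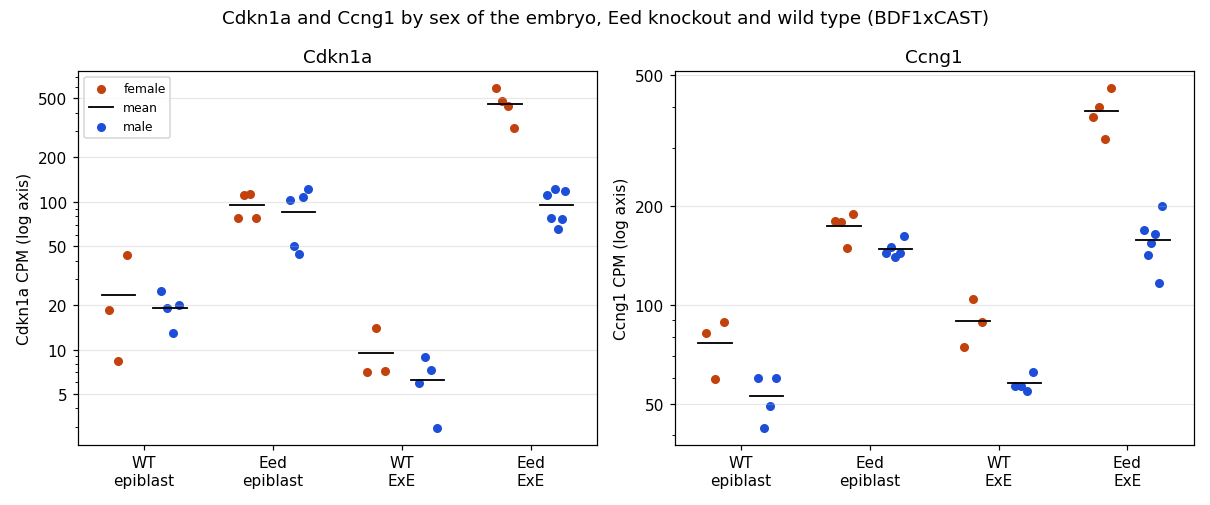
Cdkn1a (left) and Ccng1 (right) in CPM on log y axes, for wild type BDF1xCAST and Eed in both tissues on the x axis. Points are libraries coloured by sex and black lines are means. The 4 Eed ExE females lie at 314 to 590 CPM of Cdkn1a, above all 6 males at 65.0 to 122.

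The remaining members had few reads. Cdkn2a (chr4:89274472-89294619) had 315 reads over all 72 libraries, Phlda3 (chr1:135766084-135769134) 335 and Bbc3 (chr7:16308319-16318334) 6, while Cdkn2b (chr4:89306288-89311032) had a read in 55 libraries, and a count of 0 in a library allows up to 0.170 to 2.63 CPM, depending on its depth (counting error only). In wild-type epiblast Cdkn2a was at 0 in 5 of 7 libraries and at 0.330 and 2.29 CPM in the others. It had at least 1 read in all 6 Rnf2 epiblast libraries (0.623 to 2.70 CPM) and in 8 of 9 Eed epiblast libraries (up to 6.78 CPM). It had no read in the 3 Dnmt1 epiblast libraries and 1 read in the 6 G9a-Glp epiblast libraries. In ExE the mean of Cdkn2a was 2.92 ± 1.56 CPM in Eed (n = 10), 1.53 ± 0.48 in Rnf2 (n = 5) and 0.747 ± 0.587 in the wild type (n = 7), with overlapping ranges. These 4 members passed the filter in no knockout comparison with wild type. With no filter Cdkn2a was higher in Eed ExE (log2 fold change 1.68 ± 0.55, adjusted p = 0.0238) and Eed epiblast (2.65 ± 0.94, adjusted p = 0.0462), while in Rnf2 epiblast its adjusted p was 0.165. The adjusted p-values of these low members have no further alternatives.

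Cdkn2b, the neighbour of Cdkn2a, was detected in 2 of 7 wild-type epiblast libraries (up to 1.52 CPM) and in all 6 Rnf2 epiblast libraries (0.718 to 3.13 CPM). The Rnf2 libraries were the deepest, and a read is more easily found in them. Over the groups this was 96 against 3 reads, a ratio of read rates of 9.62 (95% exact interval 3.19 to 47.5, counting error only), and the adjusted p was 0.0417 with no filter. In ExE it was read in every wild-type library, at 0.333 to 3.09 CPM, and 10 Eed libraries at 1.57 to 8.83 CPM overlapped these (0.88 ± 0.47, adjusted p = 0.164). The span of Cdkn2b lies inside that of Gm12610, so their reads may not be separable. Phlda3, whose product restrains the kinase Akt, was read in 2 of 7 wild-type epiblast libraries and in all 6 Rnf2 epiblast libraries, at 1.64 to 5.77 CPM (3.62 ± 0.88, adjusted p = 0.00341, no filter), while a count of 0 in a wild-type epiblast library allows up to 0.991 to 2.29 CPM. In Eed ExE it was at 6.99, 3.87, 0.983 and 2.01 CPM in the 4 females and at 0 in 4 of the 6 males, and against the wild type its log2 fold change was 2.63 ± 0.96 (adjusted p = 0.0419, no filter). Bbc3, which encodes the cell-death protein Puma, had reads in 4 of 72 libraries, 3 of its 6 reads in 1 G9a-Glp ExE library, and no difference could be detected at this depth.

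**Figure D4:**
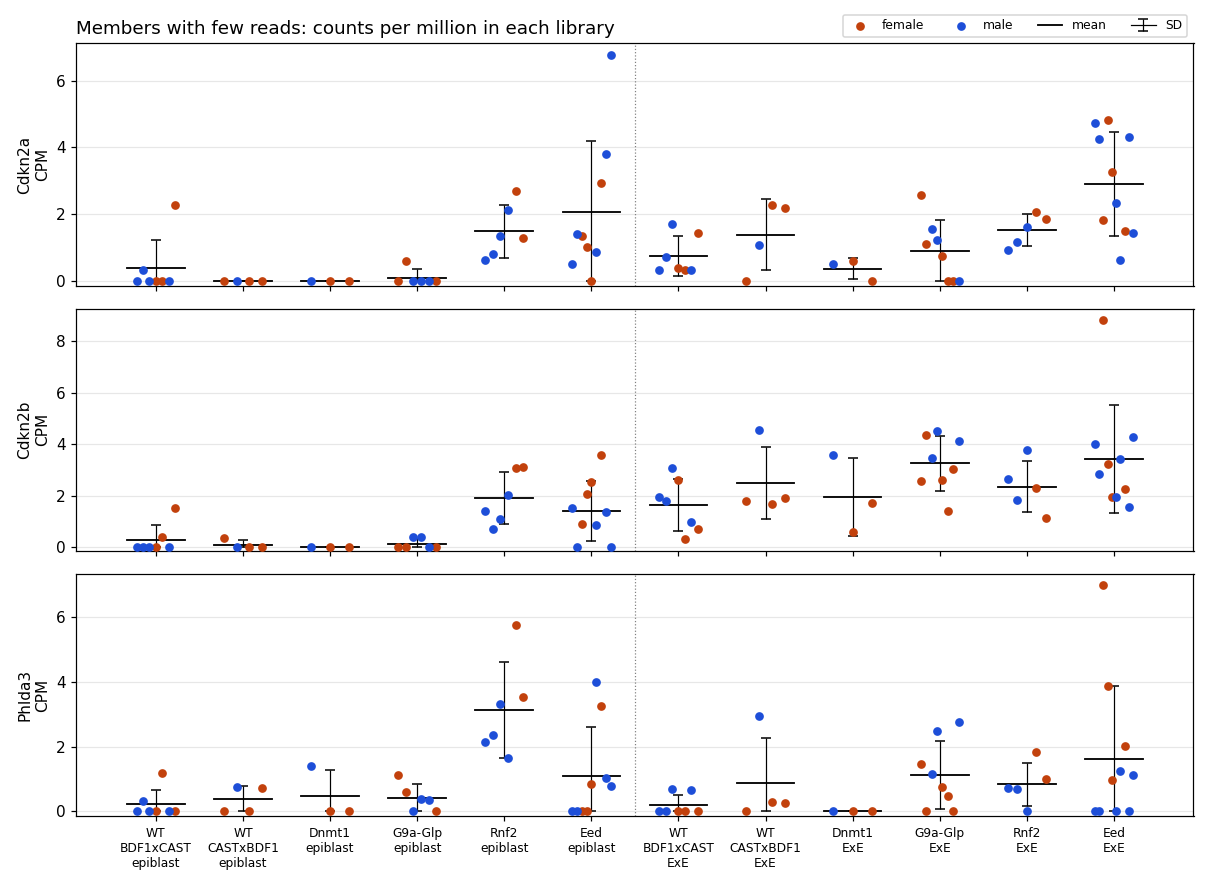
CPM on linear y axes for Cdkn2a, Cdkn2b and Phlda3 in each library of the 12 groups (x axis), coloured by sex. Black lines are means and bars are 1 SD, ended at 0. Most wild-type epiblast libraries sit at 0, and the 6 Rnf2 epiblast libraries all have reads of the 3 genes.

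A wild-type embryo gave the highest Ccng1 values of the series. Embryo 2 of CASTxBDF1, the only male of its group, held 626 CPM of Ccng1 in epiblast and 621 in ExE, against 46.4 to 74.6 and 84.3 to 90.0 CPM in the other 3 embryos. Its Cdkn1a was 270 CPM in epiblast and 215 in ExE, against 8.69 to 19.7 and 10.5 to 21.8 CPM, a ratio to the mean of the others of 18.9 and 14.7. Trp53inp1 was 16.2 and 6.78 times that mean, Sesn2 9.14 and 3.88 times, and Zmat3 2.38 and 2.07 times. Over 8914 genes with a mean of at least 5 CPM in this cross, 44 (0.494%) were at least 3 times the mean of the others in both tissues, and 4 of the 5 members at that level were among them. Of 22 other p53 targets at that level 5 were, and they included Eda2r (19.9 and 11.9 times), Plk2, a polo-like kinase (12.2 and 6.92 times), Dcxr and Polk, named here after their values were seen. No gene of the lists of integrated stress response or cell-cycle progression was, out of 9 and 28. The same epiblast library held 2557 CPM of visceral endoderm markers, with a median of 60.2 CPM in its group, and the 4 ExE libraries held 9.67 to 34.9 CPM. The part of that tissue was not tested, and a single embryo allows no test of the difference.

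This embryo shaped the comparison of crosses. In ExE, CASTxBDF1 exceeded BDF1xCAST in Cdkn1a by a log2 fold change of 3.11 ± 0.70 (adjusted p = 0.0464), 1 member called of 5 against 1.06% of all genes. Without embryo 2 no member was called, and Cdkn1a was at 0.92 (adjusted p = 0.361). The call was also lost without CASTxBDF1 embryo 1 or any of wild-type BDF1xCAST embryos 1, 2, 3, 4, 7 and 8, and its adjusted p ran from 0.00115 to 0.361 over all alternatives. In epiblast no member of 4 was called by edgeR or DESeq2, 3 had an unadjusted p under 0.05, and 0.0103% of all genes were called. Ccng1 was called there with no filter (1.73, adjusted p = 0.0234) and with all groups in one fit (1.72, adjusted p = 0.0306), within a range of 0.0234 to 0.914. There the Cdkn1a value of 1.93 ± 0.71 became -0.44 without embryo 2. The cross was confounded with the mode of fertilisation.

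**Figure D5:**
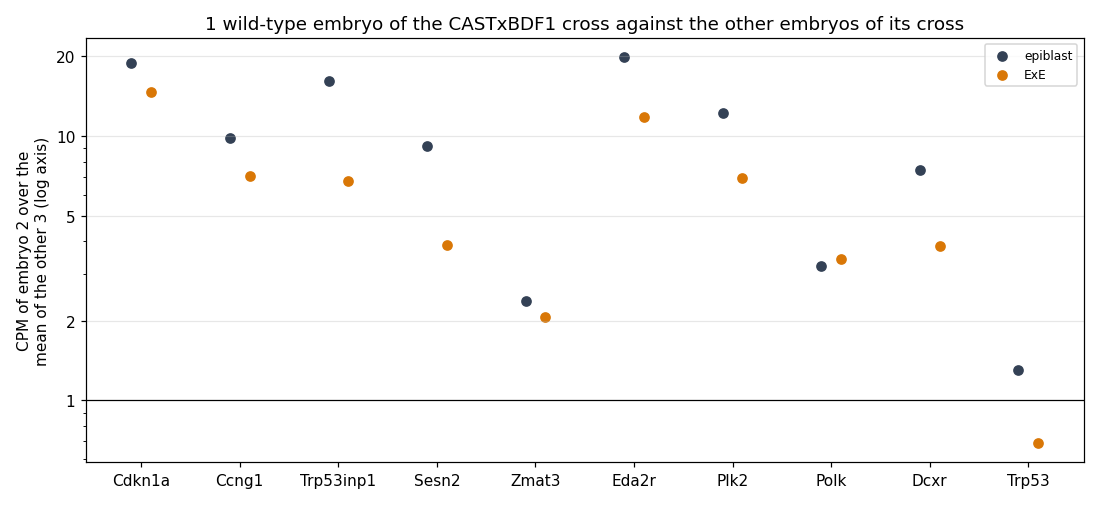
Ratio of the CPM of CASTxBDF1 embryo 2 to the mean of the other 3 embryos of its cross, on a log y axis, for 5 members, 4 other p53 targets chosen for being at least 3 times that mean in both tissues, and Trp53 (x axis). Points give epiblast and ExE, and the line marks a ratio of 1. Cdkn1a lies at 18.9 and 14.7, Zmat3 at 2.38 and 2.07.

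Among 36 other p53 targets, 21 to 26 were tested in each knockout comparison. In Eed, 11 of 23 were higher and 1 lower in epiblast, against 19.2% and 16.5% of all genes, and 13 of 26 higher and 0 lower in ExE, against 22.7% and 18.1%. In Rnf2, 13 of 24 were higher and 1 lower in epiblast (18.0% and 13% of all genes), and 8 of 26 higher and 0 lower in ExE (12.2% and 9.99%). In G9a-Glp, 10 of 24 were higher and 0 lower in ExE (8.5% and 6.66% of all genes), while the 5 of 21 higher and 2 lower in epiblast were near the shares of all genes (19.6% and 15.0%). In Dnmt1, 5 of 23 were higher and 1 lower in epiblast (6.94% and 7.16% of all genes), while the 2 of 24 higher and 1 lower in ExE were near or below the shares of all genes (8.54% and 9.96%). The list median ran from 0.13 in Dnmt1 ExE to 0.78 in Rnf2 epiblast on the log2 scale, with medians of all genes of -0.03 to 0.02. In Eed ExE the largest were Eda2r at 4.00 ± 0.48, Btg2 at 3.28 ± 0.37 and Plk2 at 2.43 ± 0.51. In Dnmt1 and G9a-Glp epiblast the cell-death gene Bax was among the 3 largest, at 1.54 ± 0.32 and 1.76 ± 0.23. Trp53 itself, the gene of p53, rose in all 4 epiblasts, by 0.59 ± 0.19 in Dnmt1, 0.67 ± 0.12 in G9a-Glp, 0.42 ± 0.12 in Rnf2 and 0.52 ± 0.14 in Eed. The G9a-Glp call for Trp53 held in every alternative run (highest adjusted p = 0.00492). The Dnmt1 epiblast call (adjusted p = 0.0475, alternatives 0.00695 to 0.293) was lost with no filter, sex as a term or the replicate block, and without any knockout embryo or wild-type embryo 1, 3, 4, 6 or 7. The Rnf2 call (adjusted p = 0.0172, alternatives 0.00137 to 0.181) was lost with no filter (0.108) and with the block (0.181), and the Eed call (adjusted p = 0.0075, alternatives 0.00123 to 0.359) with the block (0.0993) and in females alone. In ExE Trp53 rose in Dnmt1 (0.68 ± 0.19, adjusted p = 0.0246), a call lost without embryo 2 (0.0835) or 3 (0.136), and was not called in the other 3, including Eed (0.12 ± 0.17, adjusted p = 0.596), where Cdkn1a rose most.

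Other inhibitors moved by knockout. Cdkn1c, an imprinted gene for the kinase inhibitor p57, rose in both Polycomb knockouts in both tissues, by 1.87 ± 0.26 in Rnf2 epiblast, 1.65 ± 0.25 in Eed epiblast, 1.84 ± 0.20 in Rnf2 ExE and 2.87 ± 0.34 in Eed ExE. It also rose in G9a-Glp ExE (1.16 ± 0.28), and it fell by 1.80 ± 0.37 in Dnmt1 ExE. Cdkn3 was called lower in Dnmt1 epiblast (-1.09 ± 0.24) and G9a-Glp epiblast (-1.12 ± 0.17). It was also lower in Dnmt1 ExE (-1.245 ± 0.214) and Rnf2 ExE (-0.66 ± 0.16). Cdkn2d was called higher in Eed epiblast (0.64 ± 0.23). Of the 8 genes of that list 4 to 6 were tested in a comparison, and 0 to 2 were higher and 0 to 2 lower, too few to set against the shares of all genes. Among 13 p53 regulators, Bmi1, a PRC1 subunit known to repress Cdkn2a, rose in Rnf2 epiblast (1.93 ± 0.36), Eed epiblast (1.64 ± 0.27), Rnf2 ExE (1.13 ± 0.26), Eed ExE (1.03 ± 0.23) and G9a-Glp ExE (0.85 ± 0.24). Chek2 was lower in Dnmt1 epiblast (-0.70 ± 0.22), G9a-Glp epiblast (-0.54 ± 0.18), Eed epiblast (-0.67 ± 0.16) and Eed ExE (-0.58 ± 0.19). Atm was lower in Dnmt1 ExE (-0.64 ± 0.19) and Eed ExE (-0.52 ± 0.15). In Rnf2 epiblast Atr (-1.25 ± 0.36) and Trp53bp1 (-0.91 ± 0.31) were lower. Usp7 was higher in Dnmt1 epiblast (0.70 ± 0.19) and G9a-Glp epiblast (0.46 ± 0.13), and Cbx7 in Eed epiblast (0.80 ± 0.28). The list moved both ways, with 1 to 4 called higher and 0 to 5 lower among the 10 or 11 tested, against 6.94% to 22.7% of all genes higher and 6.66% to 18.1% lower.

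The integrated stress response is another known route to Sesn2, and its part in the Sesn2 values was not tested. Of 21 listed genes 9 to 12 were tested, and 0 to 3 were higher and 0 to 2 lower. In Eed ExE this was 3 higher and 2 lower of 12, near the 22.7% and 18.1% of all genes, and in Dnmt1 ExE 2 higher of 12 against 8.54%. Its central factor Atf4 rose in Dnmt1 epiblast (1.09 ± 0.30, adjusted p = 0.0273, alternatives 0.00538 to 0.163) and G9a-Glp epiblast (0.79 ± 0.24, adjusted p = 0.0183, alternatives 0.00552 to 0.0661). The Dnmt1 call for Atf4 was lost with the replicate block, without knockout embryo 1 or 3 and without wild-type embryo 1, 4 or 6, and the G9a-Glp call with the block and without knockout embryo 1. Atf4 was not called in the other 6 comparisons, and in 4 of these (Dnmt1 ExE, Rnf2 ExE, Rnf2 epiblast and Eed epiblast) it was called in at least 1 alternative. In Eed ExE the 3 genes called higher were Atf3 (5.34 ± 0.64), Cebpb (3.25 ± 0.53) and Trib3 (1.82 ± 0.37), and in Dnmt1 ExE the 2 were Cebpb (2.99 ± 0.65) and Ppp1r15a (0.92 ± 0.30). The 2 called lower in Eed ExE had smaller absolute changes. In epiblast Eif2ak3 was lower in G9a-Glp (-1.03 ± 0.22) and Eed (-0.93 ± 0.21), and Cebpg in Rnf2 (-0.69 ± 0.18) and Eed (-0.72 ± 0.15). Ppp1r15a was higher in G9a-Glp epiblast (1.72 ± 0.35) and Eed epiblast (1.17 ± 0.37). In Rnf2 ExE Eif2ak3 was lower (-1.19 ± 0.27) and Cth higher (0.97 ± 0.20).

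Among 30 cell-cycle genes, 2 were higher and 10 lower of 28 tested in Eed ExE, where 22.7% of all genes were higher and 18.1% lower. The other ExE counts were 1 higher and 5 lower of 28 in Rnf2 (12.2% and 9.99% of all genes), 2 and 5 of 27 in Dnmt1 (8.54% and 9.96%), and 0 and 1 of 27 in G9a-Glp (8.5% and 6.66%). In epiblast, of 29 tested, 9 were higher and 2 lower in G9a-Glp (19.6% and 15.0% of all genes), 7 and 5 in Eed (19.2% and 16.5%), 3 and 4 in Rnf2 (18.0% and 13%), and 4 and 1 in Dnmt1 (6.94% and 7.16%). The list median in Eed ExE was -0.24, with a median of all genes of 0.02. Ccnd1, the gene of cyclin D1, rose by 3.95 ± 0.45 in Eed ExE and 4.20 ± 0.47 in Rnf2 ExE, and by 0.65 ± 0.13 and 0.50 ± 0.13 in G9a-Glp and Eed epiblast. Ccne2, of cyclin E2, fell in all 4 knockout epiblasts, by 1.24 ± 0.23 in Dnmt1, 1.31 ± 0.16 in G9a-Glp, 1.04 ± 0.23 in Rnf2 and 1.44 ± 0.17 in Eed.

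Across the 72 libraries, the genes most like Cdkn1a among 9399 with a mean of at least 5 CPM (Pearson r of log2 of CPM plus 1) were Eda2r (r = 0.872), Ccng1 (0.825) and Btg2 (0.808). For Ccng1 they were Eda2r (0.831), Cdkn1a (0.825) and Trp53inp1 (0.819). Cdkn2b was closest to Tradd (0.793), Sfmbt2 (0.770) and S100a11 (0.763), and Cdkn2a to Esx1 (0.705), Barx1 (0.697) and Tppp3 (0.689). Cdkn2a and Cdkn1a were less alike, at 0.362. These libraries share tissues and knockouts, so that the values describe the set and have no p. The allele shares of the members gave a further view. Over libraries with at least 20 reads, the CAST share of Cdkn1a was 55.4% ± 4.1 in Eed ExE (n = 10) and 55.7% ± 5.6 in wild-type epiblast (n = 7), and that of Ccng1 was 52.6% ± 4.4 and 48.4% ± 5.3. Sesn2 was read mostly from the BDF1 allele in the knockouts, with CAST shares of 18.7% ± 6.6 in G9a-Glp ExE (n = 7), 26.7% ± 4.7 in Dnmt1 ExE (n = 3) and 27.7% ± 7.3 in Eed ExE (n = 7). No wild-type BDF1xCAST library reached 20 reads of Sesn2, and 1 library in each tissue of wild-type CASTxBDF1 did, with CAST shares of 19% in epiblast and 48% in ExE. A share far from 50% can come from the polymorphisms that are counted as well as from the alleles, and this was not tested.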

How the data were processed

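RNA of single embryos was read over BDF1 and CAST polymorphisms in 72 libraries. The authors deposited, per gene and library, whole-number counts of reads over these polymorphisms, per the file headers. They also deposited an allelic ratio (the CAST share minus 0.5), used as CAST share in percent where a gene had at least 20 reads, and an allelic score (a signed −log10 of a binomial p), which was not used. STAR 2.5.0, HTSeq and build mm10 are named in the submitters' processing notes, with no role given. Libraries were grouped by the labels' genotype, cross and tissue.

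Counts were fitted with edgeR 4.0.16 (R 4.3.3), with TMM scaling, filterByExpr and quasi-likelihood tests over all genes, and called at an adjusted p under 0.05 (Benjamini-Hochberg). Each comparison was fitted on its own groups, and each interaction on the 4 groups it involves. The edgeR steps were tested on simulated data. Alternatives were DESeq2 1.42.0, library-total scaling, no filter, sex as a term, a replicate block, all groups in one fit, dropping libraries whose targeted genes were not below the second lowest wild-type value, and leaving out each library. Comparisons by sex were chosen after seeing the data. The members and the gene lists were chosen with earlier results of these data known. Named beside the members were the targeted genes, Trp53, Atf4, up to 3 called genes with the largest change from each list and comparison, and the 3 genes most like Cdkn1a, Cdkn2a, Cdkn2b and Ccng1. Where nothing in the labels says that libraries came from separate litters or injection days, p-values measure the spread between these embryos. Samples of the 2 tissues of an embryo are paired by the labels: over 31 such pairs the correlation of deviations from the group means ran from -0.482 to 0.41, and 17 were over 0.1. For Eed embryos 7 to 10 the numbers in the library titles would pair the tissues otherwise than the embryo labels, which were used, so that the pairing there is uncertain. Intervals and limits for a count of 0 cover counting error only, since reads carry no molecular identifiers. Promoter windows come from RefSeq (GRCm38.p6).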

Additional observations from a re-analysis of the deposited data

Results flagged for a closer look

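Single embryos stood apart from their groups in 14 of 66 group and gene combinations examined (Dixon's criterion at 95%, applied to CPM). By this criterion chance alone picks about 1 in 20 groups if values are normally distributed, which was not tested. All 14 were the highest value of their group, and the 66 combinations share embryos. The Dnmt1 groups, of 3 libraries each, were not examined. Embryo 2 of wild-type CASTxBDF1 accounted for 10 of the 14. It was highest in Cdkn1a at 270 CPM in epiblast and 215 in ExE, in Ccng1 at 626 and 621 CPM, in Trp53inp1 at 58.7 and 44.1 CPM, and in Sesn2 at 13.7 and 16.7 CPM. In ExE it was also highest in Cdkn2b at 4.57 CPM and Phlda3 at 2.96 CPM. The other 4 were G9a-Glp ExE embryo 3 in Cdkn1a (262 CPM), Eed ExE embryo 3 in Cdkn2b (8.83 CPM), Eed ExE embryo 4 in Zmat3 (48.3 CPM) and wild-type BDF1xCAST ExE embryo 6 in Trp53inp1 (11 CPM).

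Effects that differed between the tissues by a test of the difference itself (edgeR, effect in ExE minus effect in epiblast, log2 scale) were those of G9a-Glp on Cdkn1a (2.59) and Ccng1 (1.14), of Eed on Cdkn1a (2.84), and of Rnf2 on Trp53inp1 (-2.40) and Ccng1 (-1.46).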

How the results depend on the processing

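Of 32 calls of a member in a knockout against wild type, 18 were kept under every alternative run and 0 changed sign; the call was lost in 42 of 661 alternatives. Dnmt1 epiblast had 3 members called, against 4 with DESeq2, library totals or the replicate block and 2 to 4 on leaving out a library. In G9a-Glp epiblast 4 members were called, against 2 with the replicate block and 1 to 4 on leaving out a library. In Rnf2 ExE the count was 3, against 1 with the block, 1 with all groups in one fit and 1 without the libraries with Rnf2 not below the second lowest wild-type value. Dnmt1 ExE had 2, against 1 with all groups in one fit and 1 to 2 on leaving out a library. Eed had 5, against 2 in epiblast with females alone and 2 in ExE with males alone. The crosses in epiblast had 0, against 1 with no filter and 1 with all groups, and in ExE 1, against 0 with DESeq2, the sex term or the block, 2 with no filter or all groups, and 0 to 1 without a library. Eed against Rnf2 in epiblast had 1, against 2 with DESeq2, no filter or the sex term and 1 to 2 without a library, and in ExE 1, against 3 with DESeq2, 2 with library totals, 0 in the targeted subset and 1 to 3 without a library. Tissue differences fell from 2 to 1 with all groups for G9a-Glp and for Rnf2, and to 1 in the targeted subset for G9a-Glp. Between sexes, Eed ExE had 2, against 4 with DESeq2, 4 with no filter and 1 to 3 without a library, G9a-Glp ExE had 0 against 2 with no filter, wild-type ExE 0 against 0 to 1 without a library, and the Eed interaction with sex in ExE 0 against 1 with no filter. The cause of these changes was not tested.

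Values not called changed sign in a few alternatives. Ccng1 in Dnmt1 ExE became 0.11 with the block, and Trp53inp1 in Rnf2 ExE -0.079 with the block and -0.34 in the targeted subset. On leaving out each library in turn, the epiblast cross values ran from -0.44 (without embryo 2) to 2.30 for Cdkn1a and from -0.039 (without embryo 2) to 2.48 for Trp53inp1, and Cdkn1a in Eed against Rnf2 epiblast from -0.0083 (without Rnf2 embryo 2) to 0.33. The Cdkn1a tissue difference for Rnf2 was -0.41 in the targeted subset and ran from -0.10 (without Rnf2 ExE embryo 5) to 0.49. Its sex difference in wild-type epiblast ran from -0.53 (without embryo 8) to 0.52. Its Eed interaction with sex in epiblast was -0.085 with library totals and ran from -0.26 (without wild-type embryo 6) to 0.75.

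Replicate numbers shared between genotypes are only numbers: over 58 such pairs r ran from -0.356 to 0.344, with 19 over 0.1 and 12 best with their own number. The highest share was in Eed against Rnf2 epiblast, with 5 of 6 pairs over 0.1, a median r of 0.186 and 5 of 6 best with their own number, a hint from the data and not from the design, and the block left 1 member called there. With each embryo (as labelled) as a block, no count of members called changed in the comparisons of tissues. Depth limits Cdkn2a, Cdkn2b, Phlda3 and Bbc3, for which a count of 0 allows up to 2.63 CPM in the shallowest library.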
